A study of Oryctolagus cuniculus with 6 samples.

Results

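The PDGF ligands and receptors were the 6 genes PDGFA, PDGFB, PDGFC, PDGFD, PDGFRA and PDGFRB, taken as the rows of the deposited tables that carry these symbols, of 28788 genes in all. The study compared 3 retina samples of normal adult rabbits (normal replicates 1 to 3) with 3 retina samples of a rabbit model of proliferative vitreoretinopathy (PVR replicates 1 to 3), a scarring disorder in which cells form contracting membranes on the retina. The model was made by puncturing the sclera, drawing off some of the vitreous and injecting platelet-rich plasma, the platelet-concentrated fraction of blood, in its place. No group with the puncture or the injection alone was analysed here, so the parts of the procedure cannot be told apart. The sources used here give no time after the injection, no strain, and no statement on whether the samples are separate animals, so the p-values measure the spread between these samples, which may be technical.

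PDGF is a dimeric growth factor named after platelets, which store it in their granules and release it at wounds. The A and B chains are cut to their active form inside the producing cell, whereas the C and D chains are secreted with a CUB domain that proteases remove outside the cell. PDGFRA, a receptor tyrosine kinase, is bound by the A, B and C chains, and PDGFRB by the B and D chains. In the retina, neurons make PDGFA for astrocytes that carry PDGFRA, and endothelial cells make PDGFB for pericytes that carry PDGFRB. In PVR, PDGF signalling is known to drive migration of cells and contraction of the membranes. RNA sequencing reads the transcripts of the retinal tissue and not the PDGF protein that plasma carries.

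Polyadenylated RNA was sequenced to between 31904593 and 43035080 counted reads per sample. The values given here are raw read counts, FPKM (reads scaled to gene length and to the reads of the sample) and log2 fold changes of PVR over normal. The fold changes and p-values are from the quasi-likelihood test of edgeR, and adjusted p is after Benjamini and Hochberg over the 18697 genes that passed a filter on low counts. A gene is called when its adjusted p is under 0.05. Of all genes tested 1.7% were called, 1.09% as higher and 0.615% as lower in PVR, and 1.01% also had an absolute log2 fold change over 1. The tissue label held: summed over 12 markers of rods, cones, bipolar cells and Mueller glia, the level was between 14290 and 18140 FPKM in the normal samples and between 11116 and 14850 FPKM in PVR. In normal replicate 2, however, 9 lens genes, led by the crystallins CRYAA, CRYBA1 and CRYBB2, summed to 35107 FPKM, against 13.2 and 16.2 in the other normal samples and 283 to 331 in PVR, so this library stood apart. MIP, a lens fibre channel, had 241 counts in it and at most 3 in any other sample. None of the 8 lens genes that could be tested was called with all 6 samples. Without normal replicate 2, 6 of them were called, as higher in PVR, and the log2 ratio of the mean lens sum, PVR over normal, went from -5.22 to 4.42.

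None of the 6 PDGF genes was called, with or without the fold threshold, and all 6 had passed the filter. Only PDGFA had an unadjusted p under 0.05, as did 21.2% of all genes tested. The 3 genes with non-overlapping groups were PDGFA and PDGFB, with all PVR samples below all normal samples, and PDGFC, with all PVR samples above. Over all genes tested, 28.0% had groups that did not overlap, 13.4% with PVR above and 14.6% with PVR below. The median log2 fold change of the 6 genes was -0.15, and that of all genes was -0.0088. DESeq2 and limma-voom also called none of the 6, and each gave 1 of them an unadjusted p under 0.05. On simulated counts edgeR recovered 35.5% of log2 fold changes of 1 in size, so the lack of a call does not mean no change. Without the lens-rich normal replicate 2 the log2 fold changes of PDGFA, PDGFB, PDGFC and PDGFD were -1.30, -0.77, 0.86 and -0.12, and those of PDGFRA and PDGFRB were 0.15 and 0.24.

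**Figure D1:**
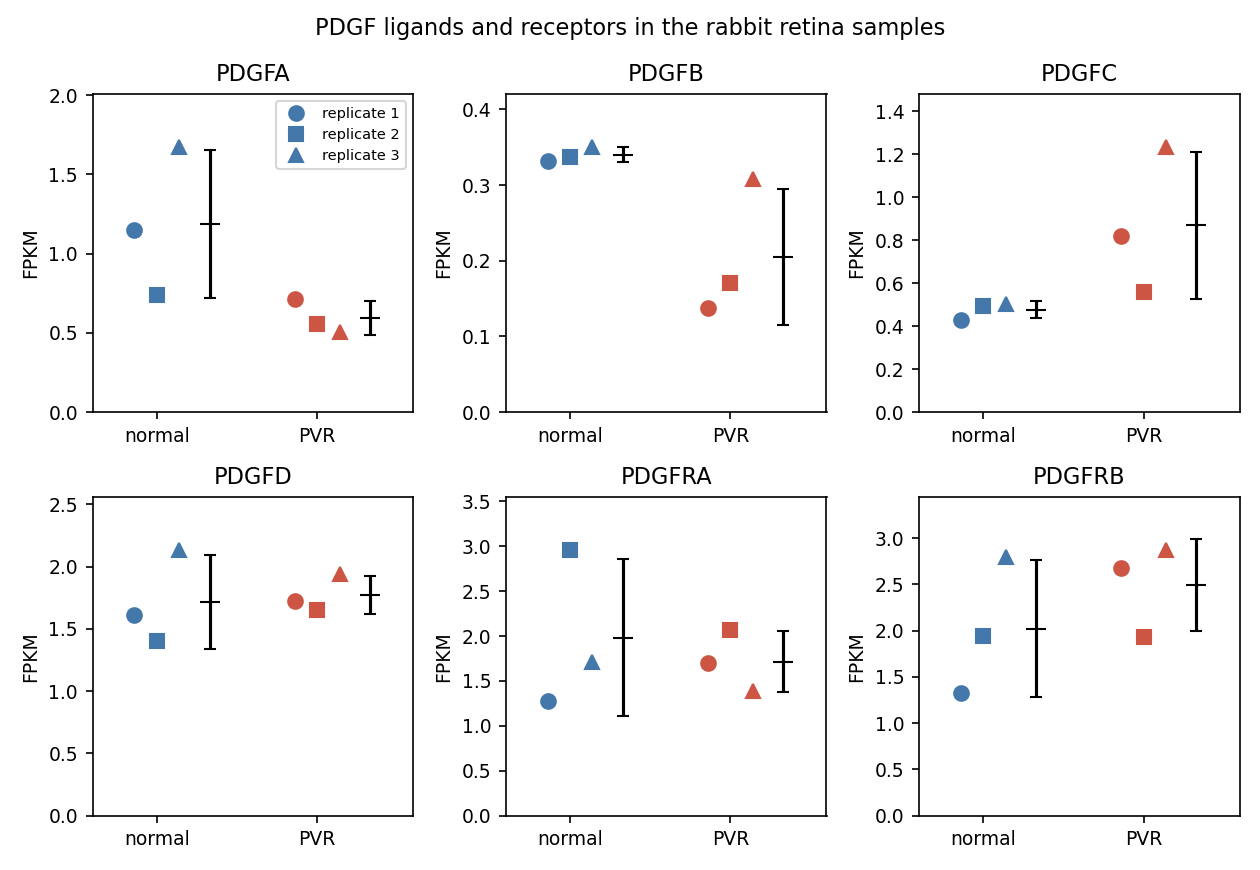
FPKM of each PDGF gene (vertical axes, from 0) in the 3 normal (blue) and 3 PVR (red) samples, with 1 marker shape per replicate number and the mean with its SD in black. PDGFA and PDGFB lie lower and PDGFC higher in every PVR sample, whereas the groups overlap for PDGFD, PDGFRA and PDGFRB.

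All 6 genes were expressed at low levels. Mean FPKM over the 6 samples ran from 0.273 for PDGFB to 2.26 for PDGFRB, and between 12.0% and 40.3% of the genes tested had a lower mean FPKM. In the normal samples the order from high to low was PDGFRB, PDGFRA, PDGFD, PDGFA, PDGFC and PDGFB. The first 3 could not be told apart, with means of 2.02 ± 0.741, 1.98 ± 0.873 and 1.72 ± 0.376 FPKM (SD, n = 3) and overlapping ranges. FPKM uses 1 length per gene, which was 2056 bases for PDGFA, 11989 for PDGFD, 5690 for PDGFRA and 5609 for PDGFRB. The order between genes and the ligand shares below depend on these lengths. PDGFD was above PDGFA in all 3 normal samples although their ranges overlapped, and PDGFA, PDGFC and PDGFB were separated by gaps between their ranges. In PVR the order was PDGFRB, PDGFD, PDGFRA, PDGFC, PDGFA and PDGFB, so PDGFC and PDGFA stood in reverse order. PDGFC was above PDGFA in 3 of 3 PVR samples and in 0 of 3 normal samples, but the ranges of the pair in PVR overlapped. In PVR replicate 2 the pair was level, at 0.557 FPKM for PDGFC and 0.556 FPKM for PDGFA. In normal replicate 2 PDGFC had 65 counts and PDGFA 62, so their order there rested on the gene lengths.

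PDGFA, the chain that retinal neurons supply to astrocytes, had 92, 62 and 138 counts in the normal group, against 47, 37 and 45 in PVR. Its FPKM was 1.15, 0.739 and 1.67 in the normal group, against 0.717, 0.556 and 0.509 in the PVR samples. All PVR values were lower than all normal values, but the highest PVR sample and normal replicate 2 lay close together. The log2 fold change was -1.06 (standard error 0.36, 95% interval -1.91 to -0.21, unadjusted p = 0.0209, adjusted p = 0.165 from edgeR). The interval is for this gene alone and is not adjusted for the number of genes tested. Leaving out normal replicate 3, the highest sample, brought the value to -0.74. The adjusted p stayed between 0.109 and 0.357 over the 15 alternatives.

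PDGFB, the chain that endothelial cells and platelets make, was the least abundant of the 6 genes. It had 47, 50 and 51 counts in the normal group, against 16, 20 and 48 in PVR. In FPKM the normal samples were at 0.332, 0.338 and 0.351 and the PVR samples at 0.138, 0.170 and 0.307. PVR replicates 1 and 2 were lower than the other samples, whereas PVR replicate 3 was just below the normal range. At 16 counts, the 95% exact Poisson interval for PVR replicate 1 was 9.15 to 26.0 counts, and at 48 counts that of PVR replicate 3 was 35.4 to 63.6, which contains all 3 normal counts. Such intervals describe the error of counting reads alone. They can be too narrow, because amplified copies of a molecule are counted as separate reads. The log2 fold change was -0.78 (standard error 0.41, 95% interval -1.74 to 0.17, adjusted p = 0.312 from edgeR). Without PVR replicate 3 it was -1.22, with an adjusted p of 0.143.

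PDGFC, a ligand of PDGFRA that is activated outside the cell, had 54, 65 and 65 counts in the normal group, against 84, 58 and 171 in PVR. The normal samples were close together, at 0.431, 0.495 and 0.504 FPKM, and the PVR samples were spread, at 0.818, 0.557 and 1.24 FPKM. PVR replicate 3 had the highest value and PVR replicate 2 stood just above the normal range. The log2 fold change was 0.81 (standard error 0.35, 95% interval -0.015 to 1.63, adjusted p = 0.243 from edgeR). It was 0.45 without PVR replicate 3 and 1.05 without PVR replicate 2, and the adjusted p was 0.205 or more in every alternative.

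PDGFD, the ligand of PDGFRB that is activated outside the cell, was the most abundant ligand in every sample. It had 753, 687 and 1025 counts in the normal group, against 659, 640 and 1002 in PVR, or 1.61, 1.40 and 2.13 FPKM against 1.72, 1.65 and 1.94 FPKM. The groups overlapped throughout. The log2 fold change was -0.019 (standard error 0.17, adjusted p = 0.962 from edgeR), and its 95% interval of -0.41 to 0.37 was the narrowest of the 6 genes. In folds, this interval runs from 0.752 to 1.30.

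**Figure D2:**
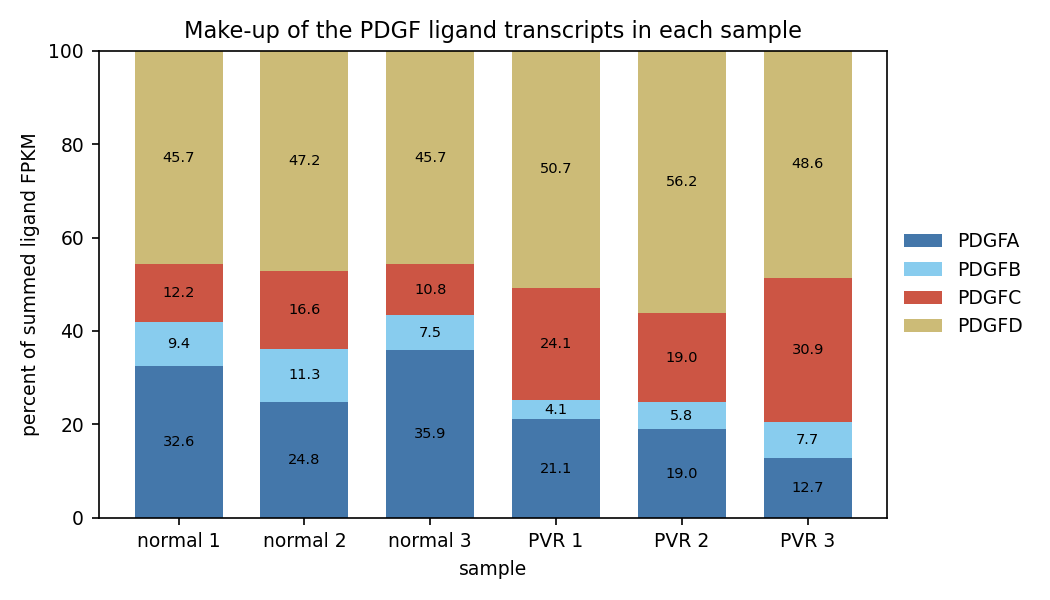
Percent of the summed FPKM of PDGFA, PDGFB, PDGFC and PDGFD that each ligand takes (vertical axis) in each of the 6 samples (horizontal axis), with the percent printed in the bars. The share of PDGFA is 12.7% to 21.1% in PVR and 24.8% to 35.9% in the normal samples, and that of PDGFC is 19.0% to 30.9% against 10.8% to 16.6%.

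Summed over the 4 ligands the groups overlapped, at 3.72 ± 0.861 FPKM in the normal samples and 3.44 ± 0.531 FPKM in PVR (SD, n = 3). Within that sum, PDGFA took 32.6%, 24.8% and 35.9% in the normal group, against 21.1%, 19.0% and 12.7% in PVR. PDGFC took 12.2%, 16.6% and 10.8% in the normal group, against 24.1%, 19.0% and 30.9% in PVR. The share of PDGFD was 46.2% ± 0.829 in the normal samples and 51.9% ± 3.93 in PVR (SD, n = 3). For these 3 ligands the groups did not overlap, with PDGFA lower and PDGFC and PDGFD higher in PVR, and the share of PDGFB overlapped between the groups. The log2 ratio of PDGFC to PDGFA in FPKM was -1.24 ± 0.596 in the normal samples and 0.49 ± 0.689 in PVR (SD, n = 3). The mean difference between the groups was 1.73, and it stayed between 1.34 and 2.06 with any 1 of the 6 samples left out. This ratio was chosen after the values were seen and was not tested, and since the shares add up to a whole, a lower share of one ligand raises the others.

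PDGFRA, the receptor that astrocytes and oligodendrocyte precursors carry, had 283, 687 and 389 counts in the normal group, against 308, 380 and 340 in PVR. Its FPKM was 1.28, 2.96 and 1.71 in the normal group, against 1.70, 2.06 and 1.39 in PVR. The highest value was that of normal replicate 2, the library with the lens genes, and the PVR samples lay within the normal range. The lens epithelium is known to express this receptor. The log2 fold change was -0.29 (standard error 0.32, 95% interval -1.05 to 0.47, adjusted p = 0.634 from edgeR). Without normal replicate 2 it was 0.15, with an adjusted p of 0.770, so the sign rested on that sample. The part of lens RNA in its PDGFRA value was not tested.

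PDGFRB, the receptor of pericytes and of contractile cells, had 289, 444 and 629 counts in the normal group, against 480, 351 and 693 in PVR. Its FPKM was 1.32, 1.94 and 2.80 in the normal group, against 2.68, 1.93 and 2.87 in PVR. Normal replicate 3 lay between PVR replicates 1 and 3, and PVR replicate 2 was at the level of normal replicate 2. The log2 fold change was 0.24 (standard error 0.29, 95% interval -0.42 to 0.91, adjusted p = 0.650 from edgeR). It was 0.017 when normal replicate 1 was left out and 0.53 when normal replicate 3 was. The 2 receptors together stood between 2.60 and 4.90 FPKM in the normal samples and at 4.21 ± 0.195 FPKM in PVR (SD, n = 3). The share of PDGFRA in this sum was 49.1%, 60.4% and 37.9% in the normal group, against 38.7%, 51.6% and 32.6% in PVR, and the groups overlapped.

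**Figure D3:**
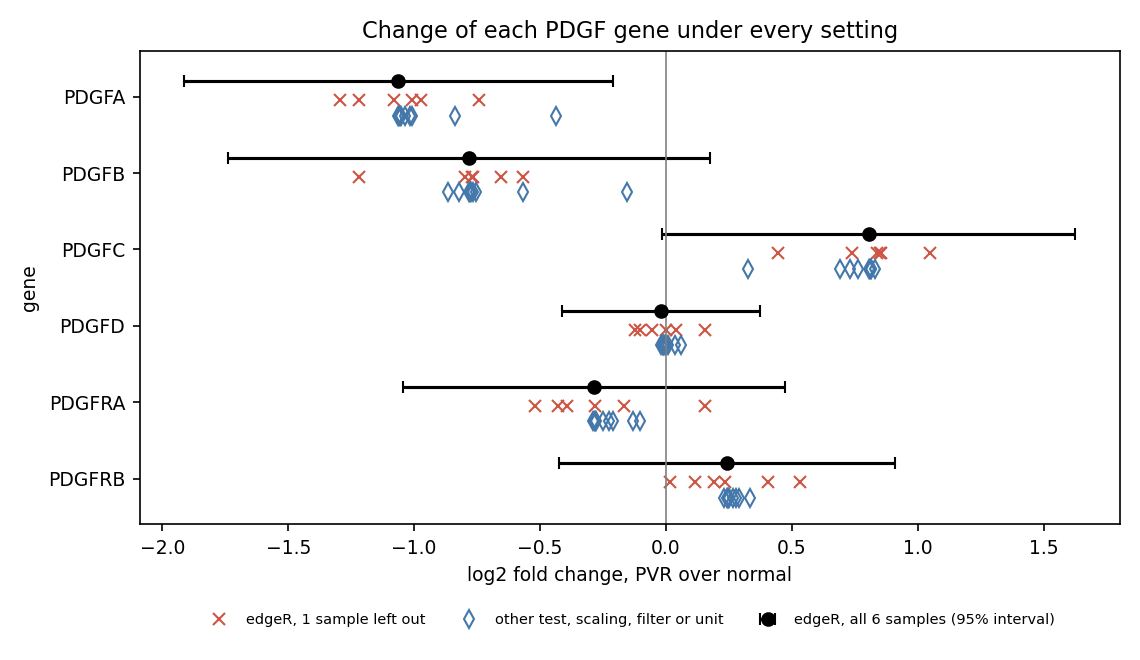
Log2 fold change of PVR over normal (horizontal axis) for each PDGF gene (vertical axis), with the edgeR value of all 6 samples and its 95% interval in black, the 6 fits with 1 sample left out as red crosses, and the 9 other tests, scalings, filters and units as blue diamonds. The signs of PDGFA, PDGFB, PDGFC and PDGFRB were kept in all 15 alternatives, whereas PDGFD changed sign around 0 and PDGFRA changed sign without normal replicate 2.

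Markers of the cells that make or receive PDGF differed between the samples. In bulk tissue, fewer cells of a type, less RNA per cell and a different part of the tissue taken cannot be told apart. The FPKM of RGS5, VWF, CDH5, SOX10, GPR17 and MAG, called as lower below, all rose from normal replicate 1 through 2 to 3. Whether the tissue taken differed between samples was not tested. RGS5, CDH5, GPR17 and MAG passed the filter on low counts only through their normal samples. Genes this low in PVR could be tested only where the normal samples were higher. The marker lists were chosen with earlier results of these data known, so shares of called markers test nothing. Of all genes tested, 0.615% were called as lower. Over 10 pericyte and smooth muscle markers, led in level by ACTA2, DES and TAGLN, the summed level was 6.73 to 14.4 FPKM in the normal samples and 4.74 to 17.8 FPKM in PVR. The 3 samples highest in this sum, PVR replicate 3, normal replicate 3 and PVR replicate 1, were the 3 highest in PDGFRB, in the same order. The other 3 did not keep their order, since normal replicate 1 was the highest of them in the marker sum and the lowest in PDGFRB. RGS5, a regulator of G protein signalling in pericytes, had 133, 485 and 953 counts in the normal group, against 3, 10 and 10 in PVR. It was the only called gene of this list, and it fell by 5.97 on the log2 scale (standard error 0.81, adjusted p = 0.0238 from edgeR). Without normal replicate 2, PVR replicate 1 or PVR replicate 2 its adjusted p was 0.0681, 0.157 and 0.0665, and with limma-voom and on log2(FPKM + 1) it was 0.186 and 0.121. The 95% interval of RGS5 was -7.87 to -4.08, whereas that of PDGFRB was -0.42 to 0.91. The other 9 markers of the list, ACTA2 among them at 1.42, 1.16 and 2.14 FPKM in the normal group, against 5.85, 1.53 and 8.02 FPKM in PVR, were not called. KCNJ8, a potassium channel subunit of pericytes, had 11, 11 and 100 counts in the normal group, against 36, 0 and 83 in PVR. The part of these cells in the PDGFRB values was not tested.

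Of 12 endothelial markers, VWF and CDH5 were called, both lower, which is 16.7% against 0.615% of all genes tested. VWF, the clotting factor carrier of vessel walls, had 228, 620 and 950 counts in the normal group, against 14, 13 and 25 in PVR (log2 fold change -5.02, standard error 0.55, adjusted p = 0.0119 from edgeR, or 0.106 without PVR replicate 1). Its call was also lost with limma-voom and on log2(FPKM + 1), with adjusted p of 0.116 and 0.0842. CDH5, the cadherin of endothelial junctions, had 24, 41 and 103 counts in the normal group, against 0, 0 and 1 in PVR, with an adjusted p of 0.0301 from edgeR, which was 0.0791 without normal replicate 2, 0.188 without PVR replicate 1 and 0.0849 without PVR replicate 2. On log2(FPKM + 1) and log2(FPKM + 0.1), limma gave CDH5 an adjusted p of 0.159 and 0.0691. ERG, an endothelial transcription factor, had 10, 13 and 28 counts in the normal group, against 0, 1 and 0 in PVR. Of the 12 markers, 9 had a negative and 3 a positive log2 fold change. PECAM1 had 39, 84 and 69 counts in the normal group, against 51, 90 and 67 in PVR. EGFL7 had 57, 59 and 28 counts, against 27, 49 and 45. For these 2 the groups overlapped (adjusted p of 0.757 and 0.848 from edgeR). The summed level of the list, with a mean of 98.4 FPKM in the normal samples and 111 FPKM in PVR, was carried by KDR and FLT1, receptors of vascular endothelial growth factor that cells of the neural retina can also express, followed by ESAM. PDGFB, by comparison, was at 0.332 to 0.351 FPKM and 0.138 to 0.307 FPKM in the same samples. PVR replicate 3 had nearly normal PDGFB but 25 counts of VWF and 1 of CDH5. The part of endothelial cells in the PDGFB values was not tested.

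**Figure D4:**
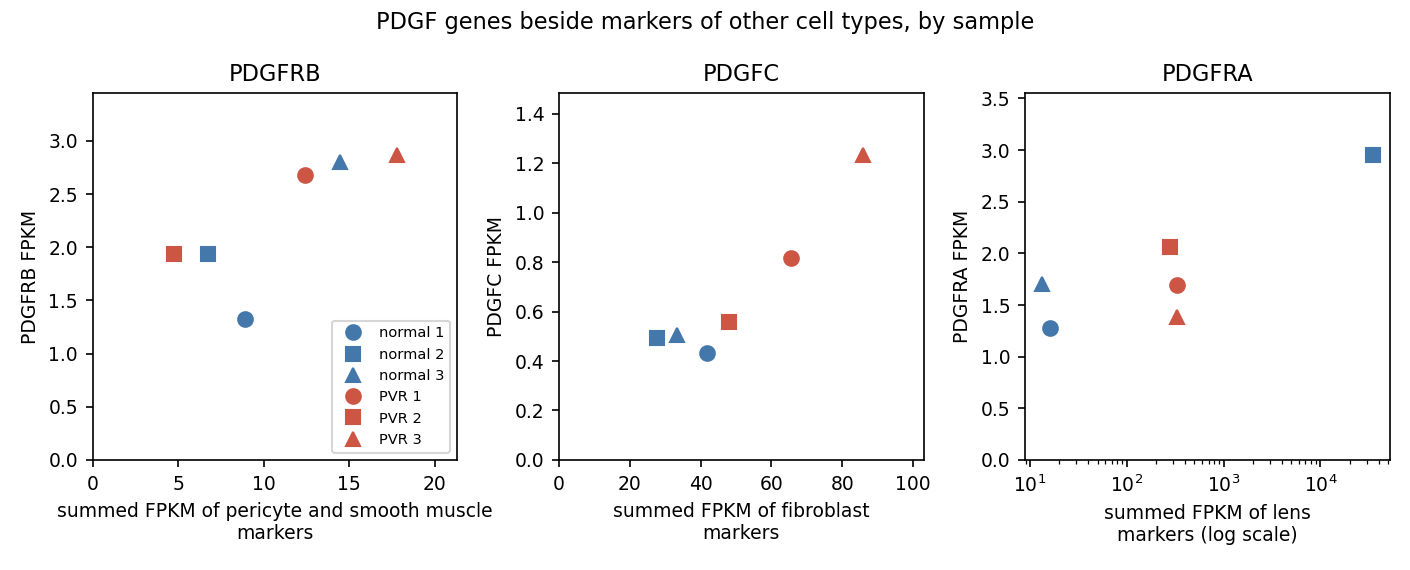
FPKM of PDGFRB, PDGFC and PDGFRA (vertical axes, from 0) against the summed FPKM of pericyte and smooth muscle, fibroblast and lens markers (horizontal axes, the last on a log scale) in each of the 6 samples. PVR replicate 3 is highest in PDGFC and in fibroblast markers, and normal replicate 2 is highest in PDGFRA and in lens markers.

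The summed level of 6 fibroblast markers was 41.8, 27.8 and 33.3 FPKM in the normal group, against 65.6, 48.1 and 85.8 FPKM in PVR, led by LUM, COL1A1 and COL1A2. COL1A1, a chain of type I collagen, had 1817, 190 and 4485 counts in the PVR samples and 224 to 532 in the normal samples, and in FPKM PVR replicate 2 was within the normal range. LUM, a matrix proteoglycan and the most abundant of the list, was at 35.2, 43.5 and 30.9 FPKM in the PVR samples. Over the PVR samples the sum and COL1A1 stood in the order of PDGFC, with replicate 3 highest and replicate 2 lowest, whereas LUM stood in the opposite order. In the normal group, replicate 1 was highest in the sum and lowest in PDGFC. None of the 6 was called. The part of such cells in the PDGFC values was not tested.

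Of 9 oligodendrocyte lineage markers, whose cells carry PDGFRA as precursors, 7 could be tested, and SOX10, GPR17 and MAG were called as lower. GPR17 and MAG passed the filter on low counts only through their normal samples. The 7 had a median log2 fold change of -2.67, and each had all PVR samples below all normal samples. The summed level was 76.8 to 407 FPKM in the normal samples and 47.9 to 55.3 FPKM in PVR, with MBP and CNP among the highest in level. SOX10, a transcription factor of this lineage, had 84, 233 and 236 counts in the normal group, against 22, 31 and 27 in PVR (adjusted p = 0.0402 from edgeR). GPR17, a receptor of differentiating oligodendrocyte precursors, had 17, 37 and 86 counts and 1, 0 and 2. MAG, a myelin adhesion protein, had 79, 280 and 783 counts and 13, 14 and 5. The call of GPR17 was lost with any 1 sample left out, with an adjusted p from edgeR between 0.0557 and 0.243. That of SOX10 held only when normal replicate 1 was left out, and its adjusted p from edgeR was 0.226 without PVR replicate 1. The adjusted p of MAG was 0.0478, and it was 0.116, 0.239, 0.119 and 0.0648 without normal replicate 2 and PVR replicates 1, 2 and 3. Under the other tests, scalings, filters and units, SOX10 was called in 5 of 9, GPR17 in 4 of 8 and MAG in 4 of 8, with adjusted p up to 0.105, 0.156 and 0.210. OLIG1 and OLIG2, the transcription factors of the lineage, had 2, 0 and 0 counts and 0, 0 and 6 counts in the PVR samples, against 6, 29 and 51 and 0, 18 and 41 in the normal samples. PDGFRA itself was between 1.39 and 2.06 FPKM in the PVR samples, within its normal range. Of 5 astrocyte markers, led by GFAP, S100B and AQP4, none was called, and their summed level was 53.7 to 148 FPKM in the normal samples and 194 to 216 FPKM in PVR. Most of this difference was GFAP, with a mean of 55.5 FPKM in the normal samples and 153 FPKM in PVR. The means of S100B were 36.5 and 44.3 FPKM, those of AQP4 6.34 and 6.53, and those of ALDH1L1 4.54 and 3.24. PAX2, a transcription factor of astrocytes of the optic nerve and retina, had 31, 33 and 128 counts in the normal group, against 1, 0 and 4 in PVR (adjusted p = 0.0541 from edgeR). The part of either cell type in the PDGFRA values was not tested.

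Markers of the cells that supply PDGF were looked at in the same way. Ganglion cell markers, led by NEFL, SNCG and NEFM, summed to 371 to 516 FPKM in the normal samples and 293 to 468 FPKM in PVR, and none of 7 was called. Of 10 platelet markers, TREML1 had no count in any sample, CLEC1B had 1 count in normal replicate 2 and none elsewhere, and SELP and GP1BA had at most 6 counts in a sample. The chemokine PPBP, a platelet granule protein, had 1, 18 and 0 counts in the normal group, against 11, 25 and 28 in PVR (adjusted p = 0.394 from edgeR). TUBB1 had 22, 21 and 25 counts in the normal group, against 10, 10 and 13 in PVR. ITGA2B had 108, 119 and 95 counts, against 55, 58 and 101. Of the 6 platelet markers that could be tested, 3 had a positive and 3 a negative log2 fold change. The platelet sum, led by GP1BB, ITGB3 and ITGA2B, overlapped between the groups at 4.11 to 7.51 FPKM and 6.48 to 8.06 FPKM, and none of the 6 that could be tested was called. Macrophages also make PDGF, and their 7 markers, led by C1QA, C1QB and TYROBP, summed to 9.61 to 27.0 FPKM in the normal samples and 30.2 to 44.4 FPKM in PVR, with none called. Pigment epithelium markers, led by RPE65, TYRP1 and TYR, summed to 44.8 to 94.8 FPKM and 31.2 to 37.3 FPKM, with none of 5 called, and PMEL, a pigment granule protein, had 0, 52 and 39 counts against 4, 0 and 2. The markers did not all go 1 way. For TYR the groups overlapped. BEST1 had all PVR samples above all normal samples, with means of 0.626 and 0.413 FPKM (adjusted p = 0.215 from edgeR). Of the 12 retina markers, SAG and GNAT1 among them, the Mueller glia genes GLUL and RLBP1 were called as lower, with log2 fold changes of -1.11 and -0.89 and adjusted p of 0.0125 and 0.0294 from edgeR, which were 0.106 and 0.188 without PVR replicate 1. These calls are 16.7% of the list, against 0.615% of all genes tested called as lower. The call of RLBP1 was also lost without normal replicate 1, normal replicate 2 or PVR replicate 2, with adjusted p of 0.0916, 0.0916 and 0.0665 from edgeR. The part of these cells in the PDGF values was not tested.

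The genes that act with PDGF were described by role, over 80 listed genes of which 73 could be tested. Their lists were chosen with earlier results of these data known, so the shares below describe them and test nothing. Of the 73 genes, 2 were called as higher, CSF1 and FOS, and 0 as lower, which is 2.74% against 1.7% of all genes tested. At an unadjusted p under 0.05 there were 13 higher and 5 lower, together 24.7% against 21.2% of all genes tested, where 11.3% were higher and 9.94% lower. The median log2 fold change of the 73 genes was 0.072. DESeq2 called 10 of them as higher and 2 as lower, or 13.9% and 2.78% of the 72 to which it gave an adjusted p, against 6.12% and 3.96% of all genes. On simulated counts 55 of the 179 calls of DESeq2 were false, against 7 of 107 with edgeR.

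The nearest relatives of the PDGF receptors are the receptor tyrosine kinases KIT, CSF1R and FLT3. Of 8 genes of this group and its ligands, CSF1 was called as higher, which is 12.5% against 1.09% of all genes tested. CSF1, the growth factor of macrophages and microglia, had 0.905, 0.933 and 0.619 FPKM in the normal group, against 1.94, 2.25 and 1.97 FPKM in PVR. The 3 PVR values all lay above the 3 normal ones (log2 fold change 1.25, standard error 0.23, adjusted p = 0.0478 from edgeR). The call held without normal replicate 3 and was lost without any other sample, with adjusted p between 0.0572 and 0.228. It was also lost on log2(FPKM + 0.1), with an adjusted p of 0.0579 from limma, and with the replicate block, with 0.0954 from edgeR. Its receptor CSF1R was at 3.18 ± 0.684 FPKM in the normal samples and 4.67 ± 0.677 FPKM in PVR (SD, n = 3), and KITLG, the ligand of KIT, at 8.89 ± 0.566 and 11.5 ± 0.300 FPKM. KIT was at 4.49 ± 0.419 and 3.40 ± 0.0868 FPKM. None of these 3 passed the test (adjusted p of 0.245, 0.280 and 0.107 from edgeR).

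None of the 8 tested genes that cut PDGF chains to their active form, or that inhibit the cutting, was called. FURIN, a convertase that cuts the A and B chains, was at 13.9 ± 0.265 FPKM in the normal samples and 13.8 ± 0.808 FPKM in PVR (SD, n = 3), and the related PCSK7 at 7.63 ± 0.919 and 7.02 ± 0.403 FPKM. PLAT, the plasminogen activator that removes the CUB domain of PDGFC, was at 4.67 ± 0.361 and 4.30 ± 0.657 FPKM. For these 3 the groups overlapped.

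Of 4 proteins that bind PDGF or act with its receptors, none was called. SPARC, a matrix protein that binds PDGF chains with a B subunit, was at 175 ± 51.1 FPKM in the normal samples and 136 ± 12.5 FPKM in PVR (SD, n = 3). LRP1, a co-receptor of PDGFRB, was at 27.7 ± 2.95 and 27.8 ± 1.67 FPKM. THBS1, a matrix protein that platelets also store, was at 3.02, 3.11 and 4.01 FPKM in the normal group, against 6.77, 5.33 and 7.89 FPKM in PVR. The PVR samples were all above the normal samples, and the adjusted p from edgeR was 0.0580, or 0.0447 without the filter on low counts and 0.0432 without normal replicate 3. DESeq2 called it, with an adjusted p of 9.17e-05.

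Inside the cell, PDGF receptors act through phosphoinositide 3-kinase, phospholipase C, Ras and the MAP kinases. Of 28 genes of this relay none was called, and their median log2 fold change was -0.034. The 3 highest in level were PRKCA at 60.1 ± 2.22 FPKM in the normal samples and 56.0 ± 4.72 FPKM in PVR, GRB2 at 39.3 ± 0.844 and 43.4 ± 4.80 FPKM, and PIK3CA at 35.6 ± 3.93 and 40.4 ± 0.517 FPKM (SD, n = 3). The log2 fold changes of the relay ran from -0.40 to 1.14, the highest being that of the kinase MAP2K1, which had 236, 230 and 205 counts in the normal group, against 396, 266 and 779 in PVR (adjusted p = 0.0973 from edgeR and 0.00334 from DESeq2). DESeq2 called 3 genes of the relay. Of the 15 phosphatases, ligases and feedback inhibitors that end the signal, none was called either. RASA1, which switches Ras off, was at 68.8 ± 11.7 FPKM in the normal samples and 79.5 ± 3.38 FPKM in PVR (SD, n = 3). DUSP6, a MAP kinase phosphatase, was at 19.1 ± 1.72 and 14.8 ± 1.68 FPKM, with PVR below normal in every sample and an adjusted p of 0.0903 from edgeR and 0.0198 from DESeq2.

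**Figure D5:**
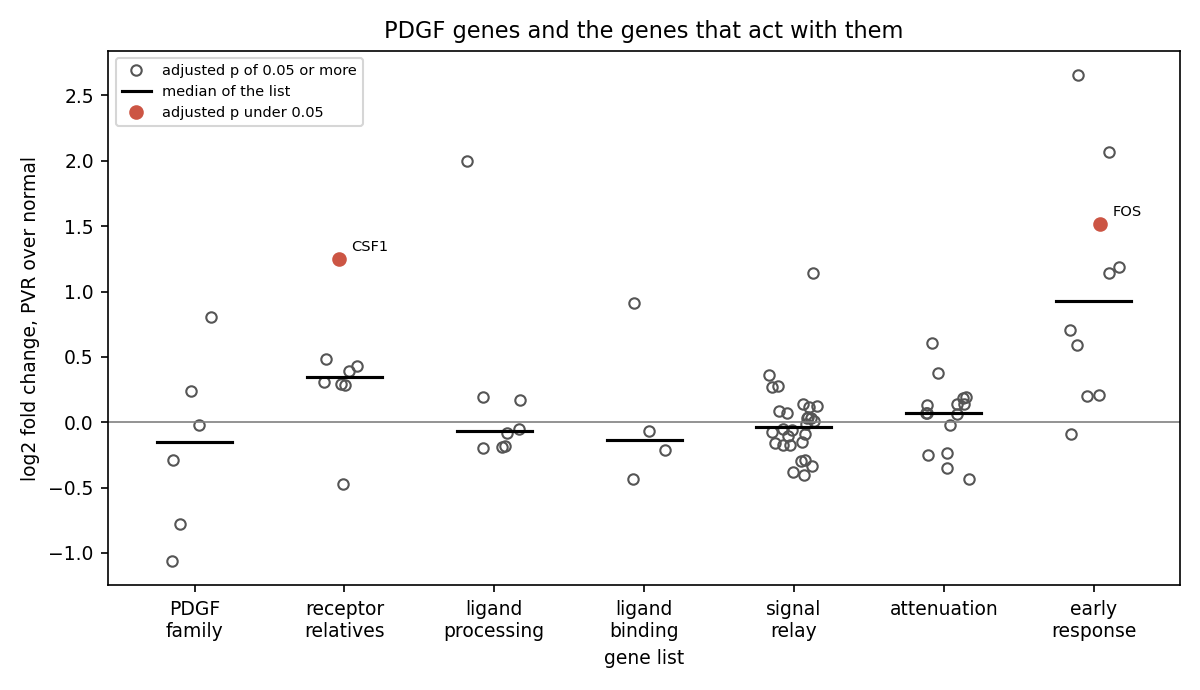
Log2 fold change of PVR over normal (vertical axis) for each tested gene of the PDGF family and of the 6 lists of genes that act with it (horizontal axis), with genes past an adjusted p of 0.05 filled in red and list medians as lines. CSF1 and FOS are the called genes, and the early response genes have the highest median, 0.92.

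The genes that PDGF is known to induce soon after it binds, which many other stimuli induce as well, had the highest median of the 6 lists of genes that act with PDGF. Of the 10 tested, 9 had a positive log2 fold change, 5 had all PVR samples above all normal samples, and 1, FOS, was called as higher. Over all genes tested these shares were 48.9%, 13.4% and 1.09%. Because the list was chosen with earlier results of these data known, this comparison is not a test of the list. Their median log2 fold change was 0.92. FOS, a subunit of the AP-1 transcription factor, was at 8.63, 12.8 and 9.93 FPKM in the normal group, against 31.5, 41.1 and 21.9 FPKM in PVR (log2 fold change 1.51, standard error 0.24, adjusted p = 0.0359 from edgeR). Its call held without PVR replicate 3 and was lost without any other sample, with adjusted p between 0.0546 and 0.190. EGR1, a zinc finger transcription factor, was at 8.81, 8.41 and 9.53 FPKM in the normal group, against 21.5, 28.5 and 12.2 FPKM in PVR (adjusted p = 0.0792 from edgeR and 0.000209 from DESeq2), and JUN was at 35.7 ± 10.6 and 43.3 ± 2.81 FPKM (SD, n = 3, adjusted p = 0.526 from edgeR). HAS2, a hyaluronan synthase, had 40, 33 and 93 counts in the normal group, against 311, 29 and 708 in PVR. PVR replicate 2 was the lowest and PVR replicate 3 the highest of its group in HAS2, whereas FOS and EGR1 stood in the opposite order.

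For each PDGF gene, the 2 genes with a symbol whose pattern over the 6 samples was nearest were found among 13547 genes by the root mean square difference of centred log2 CPM (reads scaled to the reads of the sample). For PDGFA they were SCARF1 (0.127) and SELENOV (0.186), against a spread of PDGFA around its own mean of 0.597. For PDGFB they were SLC10A6 (0.0988) and NECAB2 (0.149), and for PDGFC they were SCARF2 (0.116) and CUNH8orf58 (0.126), with own spreads of 0.531 and 0.494. For PDGFD they were DYNLT3 (0.0454) and YWHAB (0.0480), with an own spread of 0.179. PDGFRA was nearest to ATP6V1C2 (0.114) and ARHGEF10L (0.125), and PDGFRB to ITPRIPL2 (0.0853) and FBXL7 (0.113), with own spreads of 0.411 and 0.382. No PDGF gene was among the 2 nearest of another. This is a likeness over 6 samples among 13547 genes and not a test. It cannot tell whether any of these genes are regulated together.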

How the data were processed

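The authors sequenced retinal RNA of 3 normal and 3 PVR samples. Reads were trimmed with fastp per the labels, aligned to OryCun2.0 with HISAT2 and counted per gene with HTSeq. The authors deposited raw counts and FPKM values. Annotation release and strand setting are not given in the sources used here. Counts divided by FPKM gave 1 length per gene in every sample (largest relative difference 4.24e-09). No coordinates are given because no genome of that build was used.

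Counts were tested in R 4.3.3 with edgeR 4.0.16 (default low-count filter, TMM factors, condition as the single term), which kept 18697 of 28788 genes. Alternatives used DESeq2 1.42.0 (which left 804 genes without an adjusted p), limma 3.58.1 (voom, log2(FPKM + 1) and log2(FPKM + 0.1)), RLE and upper-quartile factors, no filter, at least 10 counts in every sample, a block for replicate number, and 6 fits that each left out 1 sample. The tests were checked on simulated counts with the means, library sizes and dispersions of these data. There edgeR made 107 calls, 7 of them false, and DESeq2 179 calls, 55 of them false. Of log2 fold changes of 1 in size, edgeR recovered 35.5% and DESeq2 51.6%, and of those of 2, 68.4% and 77.6%.

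The members and lists were chosen with earlier results of these data known. Of 183 listed symbols, 174 were matched, 3 of them through RefSeq gene identifiers of mOryCun1.1, and 9 were not matched and are not reported. Named genes were the PDGF genes, called list genes, the 3 highest in level of each list, markers at 0 and the 2 nearest patterns. PAX2, ALDH1L1, PECAM1, EGFL7, PPBP, TUBB1, SELP, GP1BA, BEST1, MAP2K1 and HAS2 were named after their values were seen. So were CSF1R, KITLG, KIT, EGR1 and JUN, beside the called genes of their lists. Some genes that this rule names are not reported here.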

Additional observations from a re-analysis of the deposited data

How the results depend on the processing

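No PDGF gene was called under any of the 15 alternatives, and the signs of PDGFA, PDGFB, PDGFC and PDGFRB were kept in all of them. PDGFD, at -0.019 on the log2 scale with all 6 samples, had values of 0.0015 with limma-voom, 0.0084 with upper-quartile factors, 0.037 on log2(FPKM + 1) and 0.060 on log2(FPKM + 0.1), and ranged from -0.12 to 0.16 with 1 sample left out. PDGFRA ranged from -0.52 to 0.15 with 1 sample left out, the highest without normal replicate 2. With 1 sample left out, PDGFD was above 0 without normal replicate 3, PVR replicate 1 or PVR replicate 2. The log2(FPKM + 1) scale understates changes of low genes, and there PDGFA, PDGFB and PDGFC were at -0.44, -0.16 and 0.33.

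Of all genes tested, 203 were called as higher, 115 as lower and 188 past a log2 fold change of 1 as well. DESeq2 gave 1095, 709 and 731 and the replicate block gave 62, 30 and 82. The genes called as lower were 74 with limma-voom, 55 on log2(FPKM + 1) and 66 on log2(FPKM + 0.1), and those past the fold threshold were 87 on log2(FPKM + 1). With 1 sample left out these counts ranged from 16 to 516, from 6 to 250 and from 22 to 436, all lowest without PVR replicate 1. Among the lists of genes that act with PDGF, the 2 higher calls became 10 with DESeq2, 1 on log2(FPKM + 0.1), 1 with the replicate block, and 0 to 4 with 1 sample left out, the highest without PVR replicate 3. The call lost on log2(FPKM + 0.1) and with the block was that of CSF1. DESeq2 also gave 2 lower calls, KIT and DUSP6. Of the marker lists with no call, some alternative gave up to 2 calls for astrocyte and pigment epithelium markers and up to 1 for fibroblast, macrophage and platelet markers. The causes were not tested.

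Deviations of same-numbered normal and PVR samples from their group means had correlations of -0.0129, 0.0734 and 0.0417. Those of differently numbered samples ran from -0.0828 to 0.0427. With 3 samples per group, values this low cannot tell whether the replicate numbers mark pairs. With the replicate block the log2 fold changes were -1.01, -0.87, 0.73, -0.0061, -0.21 and 0.28 in the order PDGFA to PDGFRB. With between 16 and 171 reads per sample for PDGFA, PDGFB and PDGFC, counting error adds to the spread between samples.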
